A study of Macaca mulatta with 12 samples.

Results

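The miR-30 family of *Macaca mulatta* is described here by its 6 pre-miRNAs, mml-mir-30a, mml-mir-30b, mml-mir-30c-1, mml-mir-30c-2, mml-mir-30d and mml-mir-30e. They were chosen by name among 832 pre-miRNAs with sequences in a supplementary table of the study, and all 6 were found. They give 11 distinct mature miRNAs, since mml-mir-30c-1 and mml-mir-30c-2 share their 5p sequence. The authors sequenced small RNAs in 12 profiles of 8 tissues. There were 2 profiles each of kidney, muscle and both the small and the large intestine, and 1 each of liver, lung, occipital lobe and spinal cord. All profiles came from wild-type, untreated animals with a labelled age of 36 months. Each profile is 1 library. The study's methods name 2 animals, but the labels do not say which profile came from which animal, so that p-values measure only the spread between these profiles.

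MiRNAs are short RNAs that guide Argonaute proteins to messenger RNAs, mostly by pairing of the seed, the bases near the 5' end of the miRNA, with a site in the target. A pre-miRNA is a hairpin from which a 5p and a 3p miRNA can be cut, and usually 1 of the arms is kept. The miR-30 family is conserved in vertebrates and is known for its high level in kidney, where it is needed in podocytes and in the developing nephron. It is also known from heart and skeletal muscle, and from its repression of epithelial-to-mesenchymal transition.

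The sequences of the mature miRNAs are shown because they define the family and show which reads were counted for which member. They were taken from the study's table of pre-miRNAs and are written 5' to 3' with the seed, bases 2 to 8, in capitals. The 5p miRNAs were the following.
mml-miR-30a-5p: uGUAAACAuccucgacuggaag
mml-miR-30d-5p: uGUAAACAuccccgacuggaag
mml-miR-30e-5p: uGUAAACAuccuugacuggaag
mml-miR-30b-5p: uGUAAACAuccuacacucagc
mml-miR-30c-5p: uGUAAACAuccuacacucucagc

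All 5 have the seed GUAAACA, and no other mature miRNA of the table has it. They fall into 2 groups by their 3' part. Counted from 1 at the 5' end, miR-30a-5p differs from miR-30d-5p only by U12C and from miR-30e-5p only by C13U over 22 nucleotides. It differs from miR-30b-5p at 6 of 21 positions and from miR-30c-5p at 5 of 22. The prefix mml- is left out from here on.

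The 3p miRNAs have other seeds, as printed here from the same table.
mml-miR-30a-3p: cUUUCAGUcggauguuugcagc
mml-miR-30d-3p: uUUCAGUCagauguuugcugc
mml-miR-30e-3p: uUUCAGUCggauguuuacagc
mml-miR-30b-3p: cUGGGAGGuggauguuuacuuc
mml-miR-30c-1-3p: uGGGAGAGgguuguuuacucc
mml-miR-30c-2-3p: uGGGAGAAggcuguuuacucu

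Only miR-30d-3p and miR-30e-3p share an annotated seed, UUCAGUC. None of the 5 different 3p seeds occurs in a mature miRNA outside the family. In the RefSeq gene table of the rhesus assembly T2T-MMU8v2.0, which is not the assembly of the study and is used here for gene names and for which genes lie next to each other, MIR30A is next to MIR30C-2, MIR30B is next to MIR30D, and MIR30C-1 and MIR30E both lie within NFYC, the gene of a subunit of the transcription factor NF-Y. The other 4 overlap no gene of that table.

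The profiles held 22118095 to 25579064 valid reads, so that 1 read equals 0.391 to 0.452 RPTM (reads per 10000000 valid reads). Between 35.9% (liver) and 68.4% (kidney 1) of the reads were assigned to a mature miRNA. The marker lists of liver, muscle, neural tissue and small intestine were highest in the tissues so labelled, while the intestine list was higher in liver than in large intestine. The summed level of miR-122 was 7739 RPTM in liver and at most 4.37 elsewhere. The muscle list (miR-133a, miR-206 and miR-208b) was at 131900 and 150200 RPTM in muscle and at most 915 elsewhere, and the neural list (miR-124a and miR-9) at 395100 and 265500 in occipital lobe and spinal cord and at most 994.5 elsewhere. The small intestine profiles had 376.5 and 103 RPTM of miR-802, and the highest other value was 1.255. The intestine list (miR-192 and miR-215) was at 2041000 and 1629000 RPTM in small intestine and 997600 and 450600 in large intestine. It was at 1208000 RPTM in liver and 254200 and 277900 in kidney, and so did not set large intestine apart. No marker was looked up for kidney or lung.

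The family took 5113460 exactly matching reads in the 12 profiles, of which 92.1% were 5p reads and 77.5% were miR-30a-5p alone. Its share of the valid reads was 4.04% and 2.86% in kidney, 3.81% in lung, 2.07% and 2.04% in muscle, 1.90% in occipital lobe, 1.95% in spinal cord and 1.05% in liver. It was 0.460% and 0.482% in small intestine and 0.296% and 0.420% in large intestine. Both intestines were thus below the other 6 tissues in every profile. With reads that carry a mismatch or a 3' tail included, they still were (0.495% to 0.682%), but lung (5.55%) was then above both kidney profiles (5.08% and 4.44%), while by exact reads it lay between them. Within the 5p reads, miR-30a-5p had 69.3% (small intestine 1) to 90.4% (kidney 1), miR-30d-5p 6.64% to 20.6%, miR-30e-5p 1.51% to 9.81%, miR-30c-5p 0.395% to 1.67% and miR-30b-5p 0.203% to 0.816%.

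The level of miR-30a-5p, the most abundant member, was 339220 and 237134 RPTM in kidney and 317574 in lung. It was 153128 and 140657 RPTM in muscle, 142641 in occipital lobe, 141378 in spinal cord and 67490 in liver. The lowest levels were 29365 and 34598 RPTM in small intestine and 20489 and 29883 in large intestine. The highest profile was thus 16.6-fold above the lowest, and by exact reads lung lay between the kidney profiles, both neural profiles lay between the muscle profiles, and the ranges of the intestines overlapped. This order within neighbours depended on the reads counted. With mismatches and tails included, lung was the highest profile (457659 RPTM, against 424541 and 368393 in kidney) and occipital lobe (216694) was above both muscle profiles (203117 and 179768). The large intestine profiles (32553 and 36803 RPTM) were then below those of small intestine (38592 and 48580). Among all mature miRNAs of a profile, miR-30a-5p ranked between 4 (lung) and 17 (large intestine 1).

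The other 5p members were lower in every profile. MiR-30d-5p ranged from 4230 RPTM in large intestine 1 to 39187 in lung, which was above all other profiles. MiR-30e-5p ranged from 2128 RPTM in large intestine 1 to 8675 in muscle 1, and both muscle profiles were above the other 10, of which spinal cord (8062 RPTM) was nearest. With mismatches and tails included, liver was its highest profile (14084 RPTM, against 13241 and 12899 in muscle) and large intestine 2 its lowest (3860), so that its order was not fixed. MiR-30c-5p ranged from 261 to 3017 RPTM (kidney 1), and miR-30b-5p from 153 to 1402 (muscle 2). Levels of different members are read counts per profile and not per length, and how well the library preparation captures each sequence was not measured.

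**Figure D1:**
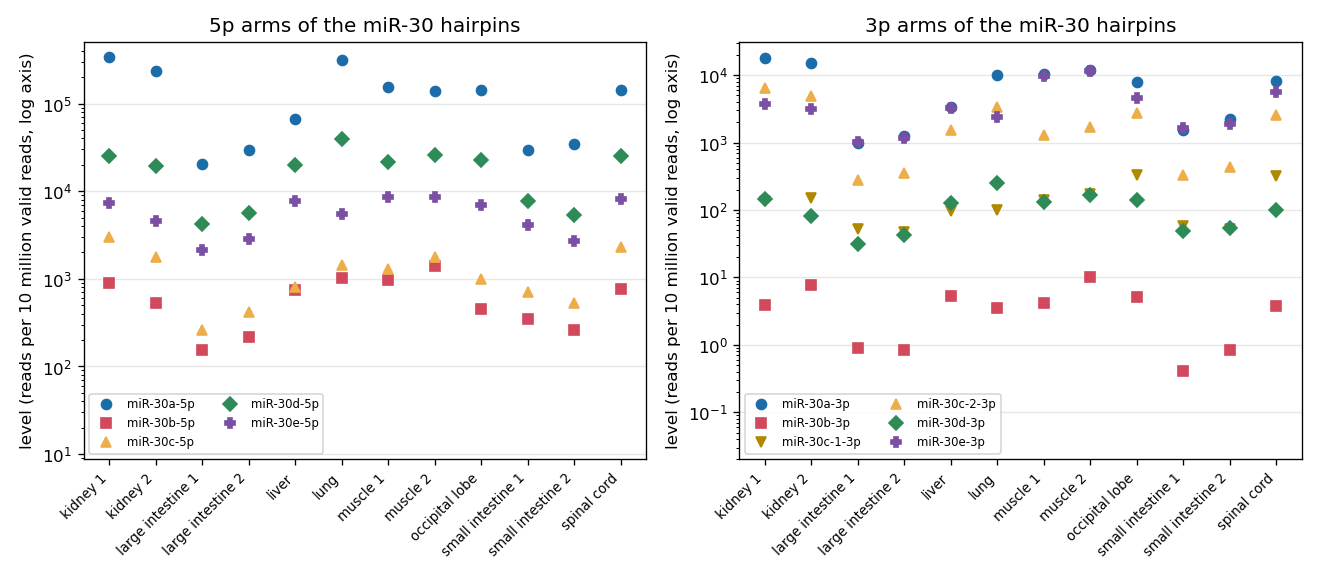
Level of each 5p (left) and 3p (right) miRNA of the family in the 12 profiles, in reads per 10000000 valid reads on a log axis, with 1 point per profile. MiR-30a-5p lies above all other members in every profile, both intestines are low for most members, and miR-30e-3p (purple) is highest in the 2 muscle profiles.

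The 3p miRNAs had another order. MiR-30a-3p was at 17933 and 14902 RPTM in kidney, 10383 and 12038 in muscle, 10040 in lung, 8029 in occipital lobe, 8133 in spinal cord and 3405 in liver. It was at 1511 and 2255 RPTM in small intestine and 986 and 1266 in large intestine. Its kidney profiles were above and its large intestine profiles below all others. MiR-30c-2-3p was at 6351 and 4907 RPTM in kidney, 3314 in lung and 2740 and 2578 in occipital lobe and spinal cord. It was at 1287 and 1702 RPTM in muscle, 1561 in liver, 335 and 436 in small intestine and 282 and 357 in large intestine. Its kidney profiles were also above all others, and the intestines overlapped each other. MiR-30e-3p was at 9619 and 11456 RPTM in muscle, followed by spinal cord (5569), occipital lobe (4530) and kidney (3727 and 3190). Its large intestine profiles (1029 and 1168) were below all others. MiR-30c-1-3p was highest in occipital lobe (331 RPTM) and spinal cord (324), above all others, of which muscle 2 (173) was nearest. MiR-30d-3p ranged from 31.6 to 256 RPTM. MiR-30b-3p had 111 reads in all 12 profiles and at most 10.02 RPTM, and did not pass the filter on low levels.

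To ask in which tissues the members differed, each tissue was compared with the mean of the other groups by the quasi-likelihood test of edgeR on read counts with TMM factors, with Benjamini-Hochberg adjustment over the 371 mature miRNAs kept. Occipital lobe and spinal cord formed 1 neural group, so that there were 7 groups. Of the family, 10 of 11 mature miRNAs were kept. Values are log2 differences of the level. The lone profiles of liver and lung were assumed to vary like those of the other groups.

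In kidney, 8 of the 10 members were higher and none was lower, where 20.8% of all miRNAs were called (62 higher and 15 lower). The median of the members was 1.07 against −0.11 over all 371. The largest differences were those of miR-30c-2-3p (2.85 ± 0.23 SE, edgeR adjusted p = 4.74e-05), miR-30a-3p (2.51 ± 0.25, 9.06e-05), miR-30a-5p (2.34 ± 0.27, 0.000307) and miR-30c-5p (1.93 ± 0.30, 0.0015). These are the miRNAs of the neighbouring mir-30a and mir-30c-2, of which miR-30c-5p is shared with mir-30c-1. MiR-30d-5p (1.08 ± 0.24), miR-30c-1-3p (1.06 ± 0.28), miR-30b-5p (0.91 ± 0.28) and miR-30e-3p (0.77 ± 0.23) were also higher, with edgeR adjusted p-values from 0.0102 to 0.043. The calls of miR-30a-5p, miR-30a-3p, miR-30c-5p and miR-30c-2-3p were kept in every alternative that could be fitted. The other 4 were lost with the total valid reads in place of TMM factors. By that scaling 4 members were called, beside 31 of all 371 miRNAs called higher and 42 lower. The count was also 4 without either kidney profile, large intestine 2, muscle 1 or either small intestine profile, and 5 without lung.

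In muscle, 5 members were higher and none was lower, beside 38.3% of all miRNAs called (95 higher and 47 lower). The median of the members was 0.76 against −0.11 over all miRNAs. MiR-30e-3p had the largest difference (2.18 ± 0.22 SE, edgeR adjusted p = 3.11e-05), followed by miR-30a-3p (1.40 ± 0.26, 0.00207), miR-30b-5p (1.35 ± 0.27, 0.00327), miR-30e-5p (0.92 ± 0.24, 0.0118) and miR-30d-5p (0.73 ± 0.24, 0.0374). The difference of miR-30e-3p was more than that of miR-30e-5p from the same hairpin, which is taken up with the arms. The call of miR-30a-3p was kept in every alternative, and that of miR-30e-3p in all but the one with reads identical to the annotated sequence, which only 1.54% of its reads were. Without muscle 2, 2 members were called, and without muscle 1, lung or any of the kidney or small intestine profiles, 3 were. The red blood cell list (miR-451 and miR-486) was at 453900 and 823900 RPTM in muscle and between 9412 and 277800 elsewhere, and its part in these differences was not tested.

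In large intestine, the median of the members was −1.22 against −0.13 over all miRNAs. There, 6 members were lower and none was higher, beside 14.6% of all miRNAs called (34 higher and 20 lower). They were miR-30a-3p (−1.91 ± 0.33 SE, edgeR adjusted p = 0.00282), miR-30c-2-3p (−1.88 ± 0.31, 0.00251), miR-30a-5p (−1.65 ± 0.35, 0.0093), miR-30d-5p (−1.33 ± 0.28, 0.0093), miR-30b-5p (−1.22 ± 0.33, 0.0328) and miR-30e-3p (−1.07 ± 0.27, 0.0233). Those of miR-30a-3p and miR-30c-2-3p were kept in every alternative. In small intestine, 4 members were lower, beside 22.1% of all miRNAs called (45 higher and 37 lower), with a median of −0.61 against −0.27. These were miR-30c-2-3p (−1.67 ± 0.30, edgeR adjusted p = 0.005), miR-30a-5p (−1.36 ± 0.35, 0.0236), miR-30a-3p (−1.14 ± 0.31, 0.0288) and miR-30d-5p (−1.005 ± 0.28, 0.0311). Without either of its own profiles, edgeR called 0 members in small intestine, and 1 without large intestine 2, lung, muscle 1 or either kidney profile. In large intestine it called 2 without either of its own profiles, either small intestine profile or kidney 2, and 3 without kidney 1. The smooth muscle miRNA miR-143 was at 2345000 to 3568000 RPTM in the 4 intestinal profiles and at most 1481000 elsewhere, and its part in these differences was not tested. With total valid reads in place of TMM factors, 10 and 8 members were lower in large and small intestine. Of all 371 miRNAs, 79 and 91 were then called lower and 21 and 28 higher, with medians of −0.80 and −0.81. In bulk tissue, fewer cells of a type and less RNA per cell cannot be told apart.

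In the neural group, the direction depended on the scaling. The TMM factors were 2.27 and 2.49 for these profiles and 0.623 to 1.37 for the others. With them, the median of the members was −0.72 against 0.59 over all miRNAs. By this scaling, 5 members were lower and none was higher, beside 67.9% of all miRNAs called (150 higher and 102 lower). They were miR-30b-5p (−1.32 ± 0.33 SE, edgeR adjusted p = 0.00485), miR-30d-3p (−1.13 ± 0.36), miR-30e-5p (−0.85 ± 0.27), miR-30a-5p (−0.83 ± 0.33) and miR-30d-5p (−0.75 ± 0.27). With total valid reads, the median over all miRNAs was 1.97, with 232 of all 371 called higher and 46 lower. All 10 members had a positive difference, of which 5 were called higher, led by miR-30c-1-3p (1.83 ± 0.27, edgeR adjusted p = 0.000143). All 10 members were below the median of all miRNAs on either scale. With TMM factors, 1 member was called without occipital lobe, spinal cord, large intestine 2, lung, muscle 1, or any of the kidney or small intestine profiles.

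In lung, only miR-30a-5p was higher (1.45 ± 0.36 SE, edgeR adjusted p = 0.0258), beside 15.9% of all miRNAs called, and with a median of 0.54 against −0.11. With total valid reads 5 members were higher, beside 63 of all 371 miRNAs called higher and 13 lower, with a median of 0.37. This rests on 1 library, in which the endothelium list (miR-126) was at 9051 RPTM, against at most 2049 elsewhere. The white blood cell list (miR-142, miR-150 and miR-223) was at 10430 RPTM in lung and at most 2964 elsewhere. The part of these lists in the difference of miR-30a-5p was not tested. Its call was lost when either kidney profile, large intestine 2, muscle 1 or either small intestine profile was left out (0 members called), and 2 members were called without liver, occipital lobe or spinal cord. In liver, edgeR and DESeq2 called none of the 10 members, and none had an unadjusted p under 0.05, beside 22.9% of all miRNAs called and with a median of 0.03 against −0.13.

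The members did not share 1 pattern. Over the 12 profiles, which include the 2 profiles of the same tissue, the levels of miR-30a-5p on the log2 scale with TMM factors had a Pearson correlation of 0.97 with miR-30a-3p, 0.95 with miR-30c-2-3p from the neighbouring hairpin and 0.93 with miR-30d-5p, but of 0.59 with miR-30e-3p. MiR-30b-5p was most like miR-30e-5p (0.92). The neighbouring mir-30c-1 and mir-30e were less alike, with 0.72 between their 3p miRNAs. Outside the family, the miRNAs most like miR-30a-5p were miR-532-3p (0.84) and miR-599-5p (0.80). Those most like miR-30d-5p were miR-532-3p (0.90) and miR-27b-3p (0.86), and those most like miR-30c-5p were miR-489-3p (0.85) and miR-660-5p (0.84). MiR-30b-5p and miR-30e-5p had the same nearest pair, miR-502-3p (0.89 and 0.86) and miR-22-3p (0.88 and 0.89). These correlations are descriptions over n = 12 profiles.

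To ask whether the 2 sequence groups of the 5p miRNAs kept a fixed balance, the summed reads of miR-30a-5p, miR-30d-5p and miR-30e-5p were divided by those of miR-30b-5p and miR-30c-5p. The ratio was 95.0 and 114 in kidney, 148 in lung, 120 in occipital lobe and 57.02 in spinal cord. It was 80.8 and 55.2 in muscle, 61.6 in liver, 64.8 and 60.3 in large intestine and 39.3 and 54.3 in small intestine. The small intestine profiles were the lowest of all, with a log2 difference of −0.81 from the other 10 profiles (exact permutation test, two-sided, 66 arrangements, p = 0.0303, adjusted over 5 comparisons p = 0.152). This is the smallest p that the design allows, so that 1 comparison alone could not pass the adjustment. For kidney, muscle, large intestine and the neural group the log2 differences were 0.60, −0.17, −0.28 and 0.20, with exact permutation p-values from 0.212 to 0.758.

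The arms of the hairpins were used in very unequal ways. The ratio of 5p to 3p reads was 68.1 to 846 for mir-30b and 97.9 to 255 for mir-30d, whose 3p miRNAs were rare. It was 11.7 to 31.6 for mir-30a, 0.753 to 2.53 for mir-30e and 0.322 to 1.80 for mir-30c, for which the reads of both hairpins were summed. For mir-30c, the 3p arms had more reads than the 5p arms in 9 of 12 profiles, and large intestine 2 and both small intestine profiles had more 5p reads. With mismatches and tails included, the 3p arms had more reads in 7 of 12, since large intestine 1 (ratio 1.17) and muscle 2 (1.016) then had more 5p reads. Of these 3p reads, miR-30c-2-3p had 84.3% to 97.9%, with the highest share in kidney 1. The 5p reads of the 2 mir-30c hairpins cannot be told apart.

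For mir-30e, the 5p share of the reads was 47.4% (Wilson 95% interval 47.0% to 47.9%) in muscle 1 and 42.9% (42.5% to 43.4%) in muscle 2. In the other 10 profiles it was between 58.4% (small intestine 2) and 71.7% (small intestine 1), so that by exact reads the 3p arm was the more abundant one in the muscle profiles alone. These intervals cover counting error only. The log2 ratio of the arms was compared with limma over the 82 hairpins with a mean of at least 20 reads in each arm, of which 4 belonged to the family. The ratio of mir-30e was lower in muscle (−1.26 ± 0.29 SE, limma adjusted p = 0.0255), beside 7.32% of all hairpins called. With mismatches and tails allowed, the 5p to 3p ratio was 1.18 and 0.972 in muscle and between 1.75 and 3.35 elsewhere, and the call was kept (limma adjusted p = 0.00946). It was lost without muscle 1 (0.104) or muscle 2 (0.278), and, by less, without large intestine 2 (0.0504), occipital lobe (0.0591) or spinal cord (0.053).

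No other member was called for its arm ratio in any tissue. In kidney and large intestine 0% of all hairpins were called, in small intestine 1.22%, in liver and the neural group 7.32% and in lung 8.54%. Without adjustment, p was under 0.05 for mir-30a in lung (0.84 ± 0.33 SE) and in muscle (−0.64 ± 0.25), and for mir-30c in small intestine (1.29 ± 0.37, limma adjusted p = 0.152). For mir-30b the 3p reads were too few.

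**Figure D2:**
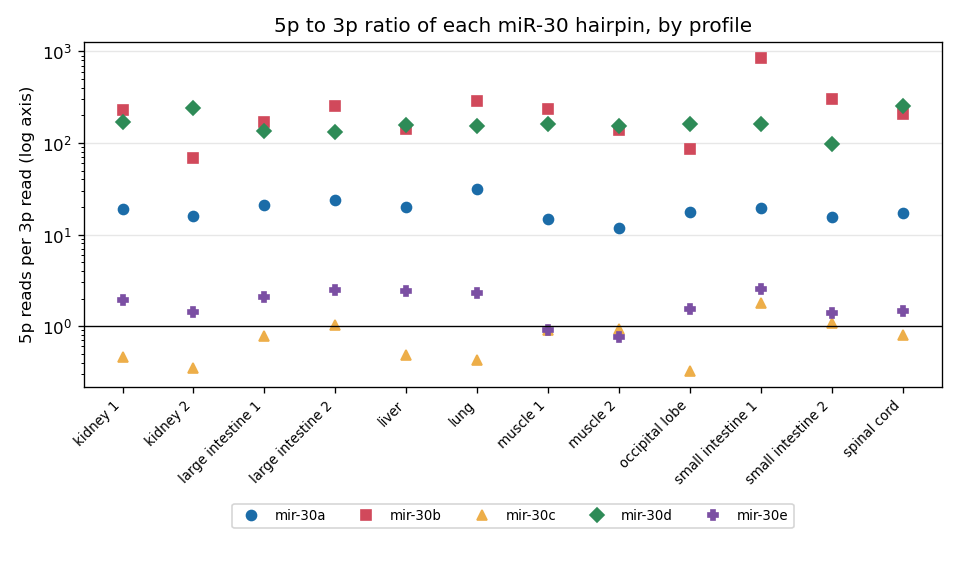
Number of 5p reads per 3p read of each hairpin in the 12 profiles on a log axis, with a line at equal numbers. The points of mir-30e fall below the line only in the muscle profiles (0.902 and 0.753), where they lie on or near those of mir-30c, and the lowest points of mir-30b and mir-30d are at 68.1 and 97.9.

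The reads often did not have the annotated ends. Only 3.10% of the reads of miR-30a-5p were identical to the annotated sequence, and 3.22%, 23.9%, 3.74% and 2.52% of those of miR-30b-5p, miR-30c-5p, miR-30d-5p and miR-30e-5p. The 5' starts of these miRNAs were nevertheless almost fixed. The annotated start was used by 98.2% of the miR-30a-5p reads, 97.2% of miR-30e-5p and at least 99.8% of each of the other 3, and in every profile by at least 96.6%. The seed GUAAACA was thus kept, and the reads differed at the 3' end. The most abundant of the reads that match the hairpin exactly, counted over all profiles, are shown because they carry this difference.
miR-30a-5p, 24 nucleotides: uGUAAACAuccucgacuggaagcu
miR-30a-5p, 20 nucleotides: uGUAAACAuccucgacugga
miR-30b-5p, 22 nucleotides: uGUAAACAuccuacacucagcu
miR-30c-5p, 24 nucleotides: uGUAAACAuccuacacucucagcu

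With 1 changed or added 3' nucleotide allowed, 55.8% of the miR-30a-5p reads had 24 nucleotides, 18.4% had 20, and only 3.62% had the annotated 22. The share of 24 nucleotides was 47.3% (lung) to 63.7% (liver), and that of 20 nucleotides 13.1% (kidney 2) to 27.8% (lung). MiR-30d-5p was alike, with 62.3% and 13.2%. In miR-30e-5p, which differs from miR-30a-5p by 1 base, the shorter form was less frequent. It had 4.70% reads of 20 nucleotides, 2.67% to 7.30% over the profiles, and all 12 values were below those of miR-30a-5p. MiR-30b-5p and miR-30c-5p had hardly any (0.185% and 0.400%), and 92.9% and 77.7% of their reads were 1 nucleotide longer than annotated.

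**Figure D3:**
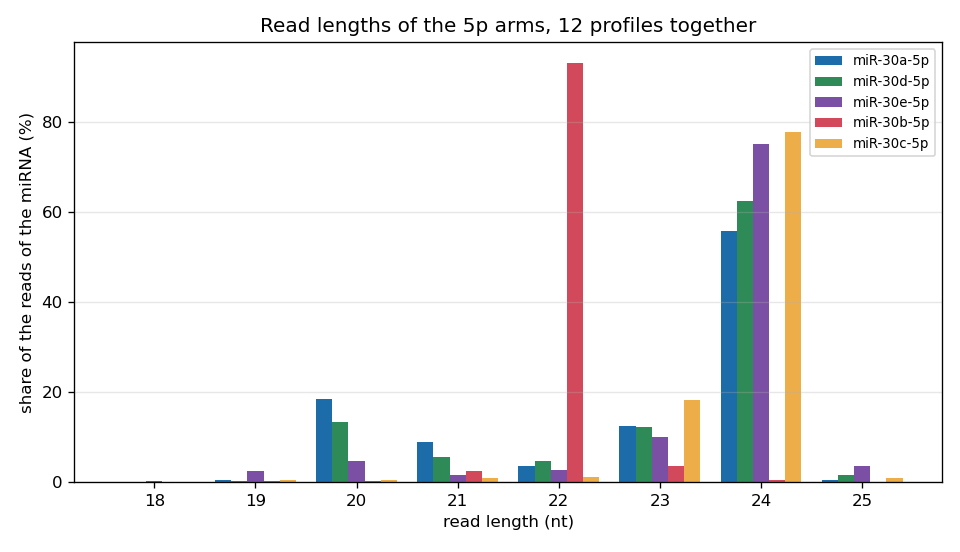
Share of the reads of each 5p miRNA with a given length, over all 12 profiles, with 1 changed or added 3' nucleotide allowed. MiR-30a-5p, miR-30d-5p and miR-30e-5p peak at 24 nucleotides (55.8%, 62.3% and 75.0%), with a lower peak at 20 for miR-30a-5p (18.4%) and miR-30d-5p (13.2%), while miR-30b-5p peaks at 22 (92.9%) and miR-30c-5p at 24 (77.7%).

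At the 3p arms the 5' start itself differed from the annotation, which moves the seed. Of the miR-30e-3p reads, 98.4% started 1 nucleotide upstream of the annotated start, 96.2% to 99.4% over the profiles. The same was seen for 99.7% of the miR-30c-2-3p reads, 98.99% of miR-30c-1-3p and 79.2% of miR-30d-3p. Most reads of miR-30a-3p (74.2%) had the annotated start. The most abundant reads are printed with bases 2 to 8 of the read in capitals.
miR-30a-3p read: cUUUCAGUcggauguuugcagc
miR-30e-3p read: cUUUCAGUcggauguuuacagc
miR-30d-3p read: cUUUCAGUcagauguuugcu
miR-30c-2-3p read: cUGGGAGAaggcuguuuacu
miR-30c-1-3p read: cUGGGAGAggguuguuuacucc

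By these reads, miR-30a-3p, miR-30d-3p and miR-30e-3p shared the seed UUUCAGU, and both miR-30c 3p miRNAs shared UGGGAGA, whereas the annotated sequences give 4 seeds to these 5 miRNAs. A part of the miR-30a-3p reads, 25.5%, started 1 nucleotide downstream and had UUCAGUC at these positions. This share was 14.4% (Wilson 95% interval 14.0% to 14.9%) and 15.3% (14.9% to 15.8%) in muscle 1 and 2. It was 25.3% to 38.5% in the other 10 profiles, with the highest value in lung (37.9% to 39.1%), so that muscle was below all others. The share of miR-30d-3p reads that started upstream was less even, from 66.4% of 119 reads in small intestine 1 to 91.1% of 101 reads in large intestine 2, with wide intervals (57.5% to 74.2% and 83.9% to 95.2%). No test was made of these shares. The 3' end of miR-30c-2-3p also varied. Reads of 20 nucleotides were 25.6% and 29.2% in muscle and 35.8% to 64.7% elsewhere, and reads of 22 nucleotides 58.3% and 53.7% in muscle and 23.3% to 48.9% elsewhere.

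**Figure D4:**
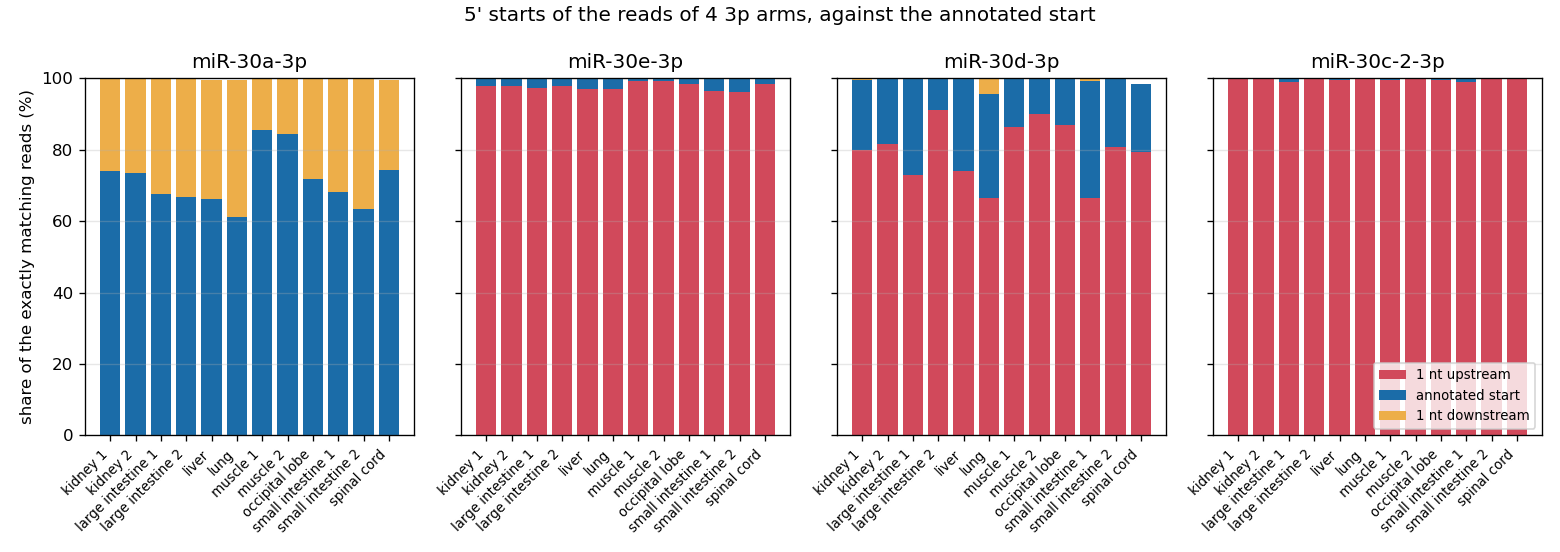
Share of the exactly matching reads of miR-30a-3p, miR-30e-3p, miR-30d-3p and miR-30c-2-3p that start 1 nucleotide upstream of, at or 1 nucleotide downstream of the annotated start, with 1 bar per profile. MiR-30e-3p and miR-30c-2-3p start upstream in nearly all reads, and the downstream share of miR-30a-3p is lowest in muscle (14.4% and 15.3%).

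Non-templated 3' nucleotides were examined in the 8 members with at least 200 reads in every profile. Any last base that departs from the hairpin was counted, whether added or in place of a templated base. A non-templated A was found on 1.94% to 4.55% of the miR-30a-5p reads, 2.01% to 6.95% of miR-30a-3p and 1.45% to 4.01% of miR-30e-3p. A non-templated U was more frequent on the 3p than on the 5p miRNA of mir-30a, with 3.65% to 8.65% against 0.541% to 1.42%, and the ranges did not overlap. For mir-30e they did, with 2.26% to 6.44% on the 3p and 2.18% to 4.29% on the 5p miRNA. Both hairpins have U at position 24 of the 5p miRNA. A U added to a 23-nucleotide 5p read therefore matches the hairpin and was not counted. The arms can thus not be compared for U addition. Both muscle profiles were the lowest of the 12 for A on miR-30a-3p (2.54% and 2.01%), miR-30a-5p (2.19% and 1.94%) and, in muscle 2 and muscle 1, miR-30e-3p (1.45% and 1.76%). Lung was the highest for each (6.95%, 4.55% and 4.01%). By limma on the log2 odds over 114 mature miRNAs, A tails were less frequent in muscle for miR-30a-3p (−1.004 ± 0.17 SE, limma adjusted p = 0.0122), miR-30a-5p (−0.59 ± 0.15, 0.0338) and miR-30e-3p (−0.98 ± 0.26, 0.0338), beside 16.7% of all miRNAs called and a median of −0.29 over all. Without muscle 2, limma called 0 members, and it called 1 without kidney 1 and 1 without lung. For U tails, limma called none of the 8 in muscle, where 3.51% of all miRNAs were called, 1 was called without large intestine 2, and 3 had an unadjusted p under 0.05. These were miR-30a-3p (−0.92 ± 0.24), miR-30e-3p (−1.05 ± 0.26) and miR-30c-5p (1.11 ± 0.38).

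A non-templated C was far more frequent than A or U on the 5p miRNAs, and differed most between profiles. The second most abundant read of miR-30a-5p, with 17.6% of its reads, was the 24-nucleotide form with C in place of the last U of the hairpin. Of the 24-nucleotide reads of the family whose template ends in U, C was read in 16.4% in kidney 1 and 43.2% in kidney 2, and in 55.0% in large intestine 1 and 15.4% in large intestine 2. It was read in 24.8% and 22.1% in muscle, 23.6% and 37.4% in small intestine, 38.0% in liver, 43.4% in lung, 44.8% in occipital lobe and 18.4% in spinal cord. The large intestine profiles were thus the highest and the lowest of all. The members gave nearly the same share in a profile, with 16.4%, 16.4% and 15.9% for miR-30a-5p, miR-30d-5p and miR-30e-5p in kidney 1 and 55.0%, 55.6% and 54.4% in large intestine 1. The change was not particular to the family. Of the 20-nucleotide reads of all other miRNAs with a templated U at the end, C was read in 17.1% and 44.2% in kidney and 57.9% and 15.8% in large intestine. Their 22-nucleotide reads had less than the family in every profile, with 35.2% and 10.5% in large intestine, 19.6% in occipital lobe and 19.7% in small intestine 2. A lesser change, A in place of a templated G at the penultimate base of 21 or 22 nucleotide reads of the family, ranged from 4.28% in kidney 1 to 15.3% in large intestine 1. In 19 or 20 nucleotide reads of the other miRNAs it was lower in every profile, from 2.24% in spinal cord to 10.9% in large intestine 1, with 7.09% against 14.9% in occipital lobe.

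**Figure D5:**
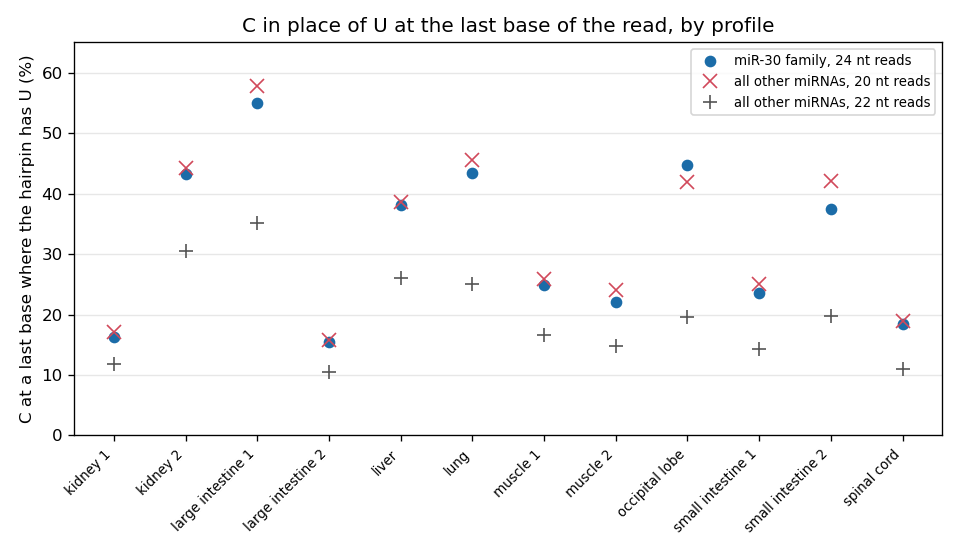
Share of reads with C at a last base where the hairpin has U, for 24 nucleotide reads of the family and for 20 and 22 nucleotide reads of all other miRNAs, with 1 point per profile. The family and the 20 nucleotide reads of other miRNAs lie within 5 percentage points in every profile, the 22 nucleotide reads of other miRNAs lie lower, and the first 2 range from 15.4% and 15.8% in large intestine 2 to 55.0% and 57.9% in large intestine 1, and the 2 kidney profiles lie far apart.

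Such reads do not match the hairpin and were left out of the levels above, which touches the 5p levels most. Exact reads were 45.6% to 74.1% of all reads assigned with mismatches and tails for miR-30e-5p and 62.9% to 81.2% for miR-30a-5p. When these reads were included, the median absolute log2 difference between the 2 profiles over the 5 5p miRNAs went from 0.67 to 0.24 in kidney and from 0.50 to 0.18 in large intestine, the tissues whose profiles differ most in this share. It went from 0.26 to 0.23 in muscle and from 0.43 to 0.33 in small intestine. With these reads, 8, 4, 8 and 4 members were called in kidney, muscle, large intestine and small intestine, against 8, 5, 6 and 4 without.

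Changes within the reads were rare. In miR-30a-5p the most frequent change from position 2 to 17, C10U, was in 0.340% of the reads, and no change in miR-30b-5p or miR-30c-5p reached 0.33%. MiR-30e-5p had C11U in 2.14%, U13A in 1.79%, C10U in 1.09% and U12C in 1.04%. Its sequence with U13A is also that of miR-30a-5p with C13A, and with U12C that of miR-30d-5p with C13U. Such reads were counted for each member they fit, so that neither change can be assigned to miR-30e-5p. A miR-30a-5p read with C13U has the sequence of miR-30e-5p and was counted there, so that this change could not be seen. Its part in the miR-30e-5p levels was not tested. The highest shares were found in rare 3p miRNAs at some of the positions that separate them from an abundant relative. MiR-30d-3p had U19A in 7.11% and A9G in 4.92% of its reads, and at both positions the changed base is that of miR-30a-3p. MiR-30c-1-3p had U11C in 3.64% and G8A in 0.804%, both the bases of miR-30c-2-3p, while C21U, which also separates them, was in 1 read. From which hairpin these reads came was not tested.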

How the data were processed

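Per the labels and the methods of the study, the authors sequenced small RNAs of 12 profiles, kept reads of high quality, cut the adapter and listed the unique sequences of at least 18 nucleotides with their counts. The deposited values are these raw counts, with no normalization. No genome was used. In Python 3.11.15, reads were assigned to a mature miRNA when they matched its hairpin exactly and started and ended within 2 nucleotides of it. The filter on low levels asked for a mean of 5 RPTM or more over the profiles, with a standard deviation from 1 upwards. Levels were tested with edgeR 4.0.16, and arm ratios and tails with limma 3.58.1 (pseudocount 0.5). DESeq2 1.42.0 was an alternative. Tails had up to 2 nucleotides, and arms needed a mean of 20 reads. The threshold was an adjusted p of 0.05. The code of the tests was run on simulated counts in which only muscle was changed, so that this run does not bear on the calls in other groups. Depth, given in the report, limits the rare 3p miRNAs, and intervals and floors cover counting error only. All 11 mature miRNAs are named, with the 2 miRNAs most correlated with each 5p miRNA and any other miRNA with a seed of the family. The members and lists were chosen with earlier results of these data known. By exact reads, same-numbered profiles of different tissues did not deviate together (r from −0.13 to 0.15), and numbers were not used as pairs. This cannot show whether the numbers stand for animals, since the share of reads with a changed last base also differed between the profiles of a tissue. The 2 profiles of a tissue differed by far more than counting noise.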

Additional observations from a re-analysis of the deposited data

How the results depend on the processing

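Of 33 results for single members past the threshold, 7 were kept in every alternative that could be fitted, and 6 changed direction in 1. These were the 5 neural differences with total valid reads in place of TMM factors (miR-30a-5p 0.58, miR-30b-5p 0.10, miR-30d-3p 0.26, miR-30d-5p 0.65, miR-30e-5p 0.56) and the arm ratio of mir-30e in muscle with identical reads only (0.021), where few reads have the annotated 3p start. With total valid reads, 5 members were called higher in the neural group in place of 5 lower. Of the 5 listed, only miR-30d-5p was among them.
The number of members called moved by more than 1.5 times in these cases, and the cause was not tested. In kidney it was 4 in place of 8 with identical reads only, 5 without a filter on low values and 4 with total valid reads. In muscle it was 8 in place of 5 with 8 groups, 2 with identical reads and 3 without a filter. In small intestine it was 1 in place of 4 without a filter and 8 with total valid reads. In large intestine it was 3 in place of 6 without a filter and 10 with total valid reads. In the neural group it was 1 in place of 5 without a filter. In lung it was 3 in place of 1 with 8 groups, 2 with DESeq2, 2 with identical reads, 0 without a filter and 5 with total valid reads. For the arm ratio in muscle it was 0 in place of 1 with 8 groups, and with identical reads it was 1 in the neural group and 1 in lung, in place of 0. For A tails in muscle it was 1 in place of 3 with 8 groups. For U tails it was 2 in place of 0 with a pseudocount of 2.
The replicate block could be fitted on the 8 numbered profiles. In muscle it gave 3 members for the level, as did the same 8 profiles without the block, 0 for the arm ratio with and without it, and for A tails 0 with the block and 1 without it. It moved no other count by more than 1.5 times. The profiles share only a number.
Leaving out 1 profile at a time gave 4 to 9 members called in kidney, 2 to 5 in muscle, 0 to 4 in small intestine, 2 to 8 in large intestine, 1 to 7 in the neural group, 0 to 2 in lung and 0 in liver. It gave 0 to 1 for the arm ratio in muscle, 0 to 3 for A tails and 0 to 1 for U tails there. The balance of the sequence groups, in which no comparison passed the threshold, ranged from −0.44 to 0.11 in muscle and from −0.33 to 0.74 in the neural group, and was −0.53 there with identical reads. Depth limits miR-30b-3p, which was not tested, and the starts of miR-30d-3p.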
